A study of Mus musculus with 2 samples.

Results

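AP-1 is a family of transcription factors that bind DNA as pairs of a Jun protein with a Fos, ATF or second Jun protein. The account covers 10 genes chosen by symbol out of the 22740 genes measured: the Jun genes Jun, Junb and Jund, the Fos genes Fos, Fosb, Fosl1 and Fosl2, the ATF gene Atf3, and the immediate early genes Ier2 and Dusp1. RNA came from whole uterus of 2 C57BL/6 mice on day 4 of pregnancy, 1 library per animal, titled WT with no treatment named. They form 1 group and are called uterus 1 and uterus 2. Because the organ was taken whole, fewer cells of a type and less RNA per cell cannot be told apart.

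Immediate early genes are transcribed within minutes of a stimulus, from factors already present in the cell, and many of their RNAs are short-lived. In the rodent uterus, oestrogen is known to induce Fos and Jun for a short time. Growth factors, cAMP and stress act through MAP kinases and through serum response and CREB factors at the promoters. Jun proteins can pair with each other, whereas Fos proteins need a partner from another family, and the leucine zipper of the bZIP domain holds the pair together.

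Values are the authors' RPKM, which is reads per kilobase of transcript, scaled to the library's read total, and can be set side by side between genes. Whole reads were recovered from them. For genes of several exons this rests on a factor chosen by annotated length, so the sums of 3790556 in uterus 1 and 4209863 in uterus 2 are estimates, with lower bounds of 3487503 and 3874963. The factor was 1 for each of the 10 genes. Intervals from the reads are exact 95% intervals that cover counting error only. Stroma, smooth muscle, epithelium and endothelium markers were all detected (at least 1 RPKM in both uteri), led by Col3a1 (1908 and 1939 RPKM), Acta2 (653 and 592 RPKM), Krt18 (70.4 and 94.3 RPKM) and Pecam1 (50.7 and 50.9 RPKM). Of the leukocyte markers 3 of 4 were detected. No fat marker and 1 of 4 red blood cell markers passed that level. The red cell markers Hba-a1 and Hbb-b1 were listed at 0, which is not read as absence. The ovary and oviduct gene Ovgp1 lay at 5.78 and 9.31 RPKM.

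Of the 10 genes, 8 were detected in both uteri (80.0%), against 58.4% of all genes and 61.6% of genes with a protein-coding (NM_) identifier. The 3 Jun genes and Fosl2 were the most abundant, all above 27 RPKM in both animals. Ier2 followed, then Dusp1, Fos and Atf3 at single-digit levels. Fosb and Fosl1 lay below 1 RPKM. The median of the 10 genes was 13.1 RPKM in uterus 1 and 11.8 in uterus 2, against 3.28 and 3.23 for all genes.

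**Figure D1:**
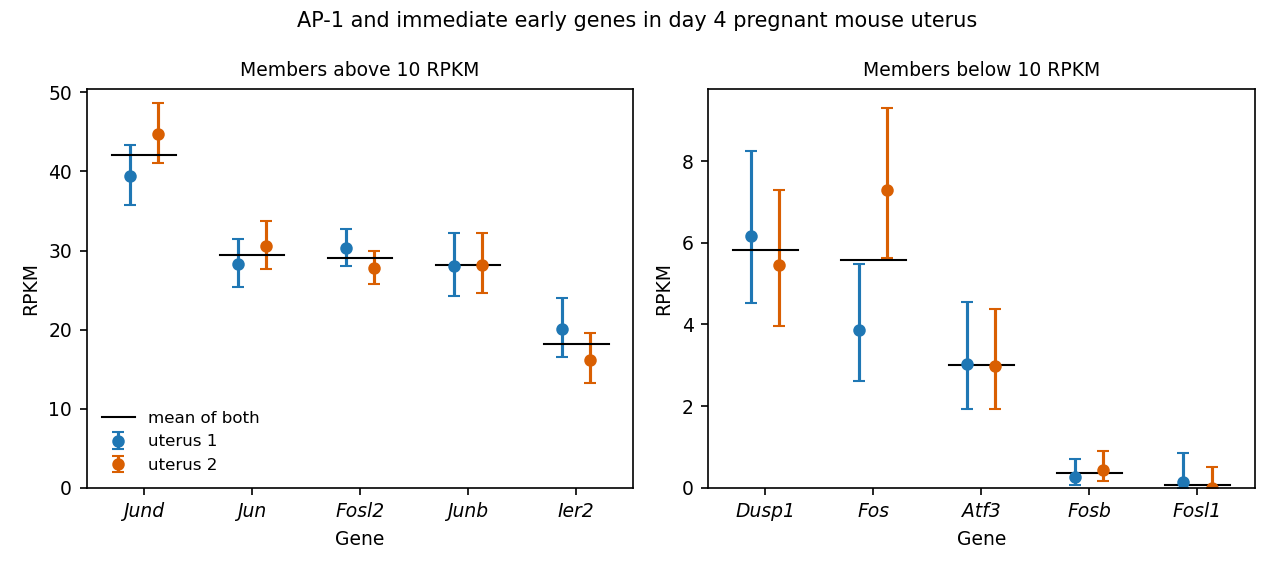
RPKM (vertical axis, linear, different range in each panel) of the 10 genes in uterus 1 and uterus 2, with exact 95% counting intervals as bars and the mean of both as a black line. Jund stands above the other genes, and Fos is the gene whose counting intervals for the 2 uteri do not overlap (3.86 and 7.30 RPKM).

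Promoter sequences are shown for the 4 genes whose upstream region holds a cAMP response element core (TGACGT) or an AP-1-like octamer (TGACATCA), the kinds of element through which CREB, ATF and AP-1 factors are known to act on these genes. Sequences are from RefSeq on build GRCm38.p6, on the strand of the gene, with the matches to these motifs, to the full element TGACGTCA and to the TATA box (TATAAA, strand of the gene only) in capitals. The Fos stretch (chr12:85473806-85473880, plus strand, 84 to 10 bases before the annotated start) holds the core and a TATA box. In Jun (chr4:95052242-95052285, minus strand, 63 to 20 bases before the start) the capitals mark the octamer. The stretch of Atf3 (chr1:191183334-191183359, minus strand, 26 to 1 bases before the start) holds the core in reverse orientation. Dusp1 (chr17:26508590-26508681, minus strand, 209 to 118 bases before the start) holds the core and, further downstream, the full element.
Fos: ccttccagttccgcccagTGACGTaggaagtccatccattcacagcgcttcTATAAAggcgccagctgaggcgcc
Jun: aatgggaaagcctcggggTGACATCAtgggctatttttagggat
Atf3: gaagctattaatagcattACGTCAgc
Dusp1: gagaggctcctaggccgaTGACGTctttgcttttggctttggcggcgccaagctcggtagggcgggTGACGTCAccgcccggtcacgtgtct

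Of the 10 genes, 8 had an entry in the promoter table (all but Fosl1 and Ier2), which covers 250 bases before to 50 bases after each start. The core TGACGT, searched on both strands, was in 3 of the 8 (Fos, Atf3 and Dusp1) and in 7.51% of all 32851 promoters. The full element TGACGTCA, which contains the core, was in Dusp1 alone of the 8 and in 1.79% of all promoters. The octamer TGACATCA was in Jun alone and in 3.62% of all promoters. A TATA box was in Fos, starting 33 bases before the start, and in Junb, where it began at the annotated start itself, against 8.32% of all. The GC box GGGCGG was in 6 of the 8 and in 35.7% of all promoters. The canonical AP-1 site (TGACTCA or TGAGTCA, both strands) was in none of the 8 windows and in 5.20% of all, and the CArG box bound by serum response factor was in none and in 1.63% of all. A match describes letters in this window only. Sequence more than 250 bases before the start was not searched, so none in a window does not mean none further upstream. The 3 genes with the TGACGT core had mean levels of 3.004 to 5.81 RPKM. No match to it was found in the windows of Jun, Junb, Fosl2 or Fosb, the last with a mean of 0.356 RPKM. Whether the core goes with level was not tested. The Jund window held none of the motifs, but it had 3 CpG pairs against 15 to 32 in the other 7 windows, and whether it begins at the start used for the deposited values was not tested. The core and octamer were added to the motifs after the sequences were seen, so their counts among the 8 are no test against all promoters. The core also contains a CpG pair, and the median of all promoters was 7 such pairs.

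**Figure D2:**
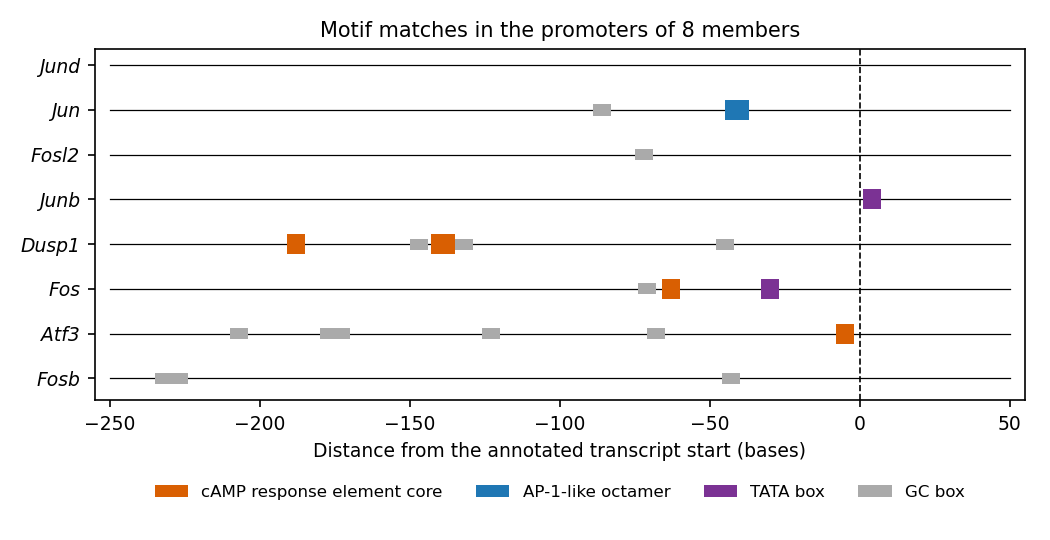
Motif matches (coloured blocks) by distance in bases from the annotated transcript start (horizontal axis) in 8 promoters, ordered from the highest to the lowest mean RPKM. The cAMP response element core, added after the sequences were seen, falls in Dusp1, Fos and Atf3. Fosb, the lowest, has no match to it, and whether the core goes with level was not tested.

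Jund, the Jun gene known for steady expression in resting cells, lay at 39.4 RPKM in uterus 1 (435 reads) and 44.7 RPKM in uterus 2 (548 reads), a mean of 42.1 ± 3.76 RPKM (SD, n = 2). It was the highest of the 10 genes and ranked 1483 among all 22740 (percentile 93.5). The gene (NM_010592, NCBIM37 chromosome 8, 73221638 to 73224515, plus strand) matched an annotated transcript of a single exon. The ratio of uterus 2 to uterus 1 was 1.13 (0.999 to 1.29).

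Jun, the founding member of the family and a target of its own protein product, lay at 28.3 RPKM in uterus 1 (346 reads) and 30.6 RPKM in uterus 2 (415 reads), a mean of 29.5 ± 1.61 RPKM (SD, n = 2). The single-exon transcript (NM_010591) runs from 94715727 to 94718913 on the minus strand of chromosome 4. Junb, which can restrain Jun activity and is itself an immediate early gene, lay at 28.1 RPKM (198 reads) and 28.2 RPKM (221 reads), a mean of 28.1 ± 0.109 RPKM (SD, n = 2). It too has a single exon (NM_008416, chromosome 8, 87500808 to 87502647, minus strand). The 2 values of each gene were close, with ratios of 1.08 (0.935 to 1.25) for Jun and 1.01 (0.826 to 1.22) for Junb.

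Fosl2, which encodes the Fos-related protein FRA-2, was the one Fos gene at the level of the Jun genes. It lay at 30.3 RPKM in uterus 1 (681 reads) and 27.8 RPKM in uterus 2 (693 reads), a mean of 29.0 ± 1.78 RPKM (SD, n = 2), on 4 exons of chromosome 5 (NM_008037, 32438845 to 32460212, plus strand). The ratio was 0.917 (0.824 to 1.02). In the order of levels, Jund stood above the next gene with no overlap of values, whereas the values of Jun overlapped those of Fosl2, and those of Fosl2 overlapped those of Junb. Both values of Jun lay above both of Junb, by a small margin (28.3 RPKM for the lower Jun value and 28.2 RPKM for the higher Junb value).

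Fos, whose protein FOS is the classical partner of JUN and the standard example of an immediate early product, lay at 3.86 RPKM in uterus 1 (31 reads) and 7.30 RPKM in uterus 2 (65 reads), a mean of 5.58 ± 2.43 RPKM (SD, n = 2). The gene (NM_010234, 4 exons) lies on the plus strand of chromosome 12 from 86814851 to 86818219. Uterus 2 held 1.89 times the level of uterus 1 (1.21 to 2.998), the widest gap among the 8 detected genes. Fosl2 was the more abundant of these Fos genes in both animals, and the values of Fos and Fosl2 were far from overlapping.

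Fosb, a close relative of Fos, lay at 0.276 RPKM in uterus 1 on 4 reads and 0.436 RPKM in uterus 2 on 7 reads (NM_008036, chromosome 7, 19888045 to 19895394, minus strand). Its ratio of 1.58 had an interval from 0.401 to 7.34, so no difference could be read at this depth. Fosl1, which encodes FRA-1, had 1 read in uterus 1 (0.153 RPKM) and was listed at 0 in uterus 2, where the limit set by 3 reads is 0.413 RPKM and the two-sided exact 95% interval drawn in the plot of levels reaches 0.508 RPKM. That gene (NM_010235, chromosome 19, 5447698 to 5455938, plus strand) overlaps exons of Ccdc85b on the opposite strand, and whether counting used strand is not given in the sources used here. Opposite-strand exons also lie within Jun (BC042782) and Jund (Gm11175), neither of which was analysed here.

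**Figure D3:**
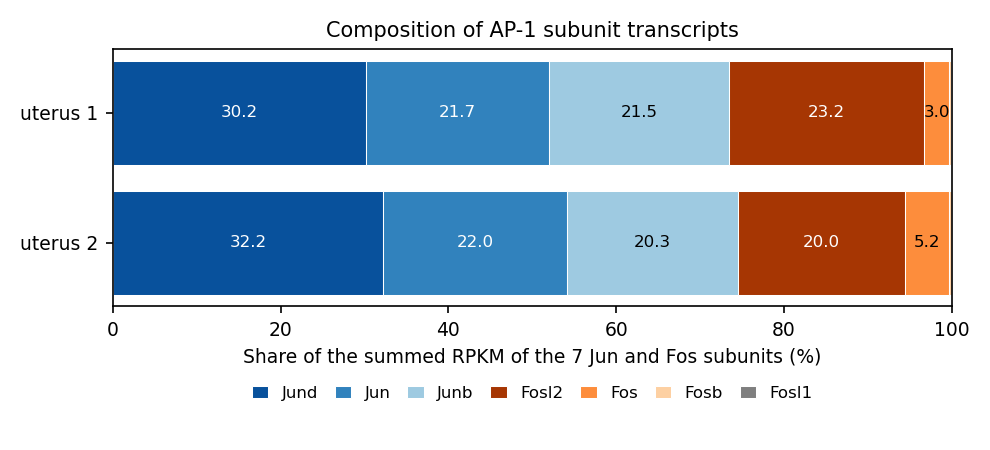
Share of each Jun gene (blue) and Fos gene (orange; Fosl1 grey) in the summed RPKM of the 7 genes (horizontal axis, percent), 1 bar per uterus. The 3 Jun genes and Fosl2 fill most of both bars, and Fos takes 2.96% in uterus 1 and 5.25% in uterus 2.

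Summed over the 7 Jun and Fos genes, RPKM was 130 in uterus 1 and 139 in uterus 2. The Jun genes held 73.5% in uterus 1 and 74.5% in uterus 2 of that sum, a mean of 74.0% ± 0.703 (SD, n = 2), or 2.77 and 2.92 times the Fos genes. The share in transcripts per length therefore differed little between the animals. Jund alone held 30.2% and 32.2%, and Fosl2 held 23.2% and 19.97%. Within the Fos genes, Fosl2 gave 30.3 of a summed 34.6 RPKM in uterus 1 and 27.8 of 35.5 RPKM in uterus 2, and Fos gave most of the remainder. Counted in reads, without division by length, the Jun share was 57.7% and 60.7%, because Fosl2 has the longest transcript of the 7. These are shares of RNA, not of protein or of dimers.

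Atf3, a stress-induced bZIP factor that pairs with Jun proteins and can repress transcription, lay at 3.04 RPKM in uterus 1 (23 reads) and 2.97 RPKM in uterus 2 (25 reads), a mean of 3.004 ± 0.0446 RPKM (SD, n = 2). The 2 values were almost equal, and with so few reads the ratio of 0.979 had an interval from 0.533 to 1.81. The gene (NM_007498) lies on the minus strand of chromosome 1 from 192994176 to 193007212. Its rank was 11579 of 22740, close to the middle of all genes.

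Ier2, a nuclear protein gene induced early by growth factors, lay at 20.05 RPKM in uterus 1 (117 reads) and 16.2 RPKM in uterus 2 (105 reads), a mean of 18.1 ± 2.72 RPKM (SD, n = 2). It is a single-exon gene of chromosome 8 (NM_010499, 87185230 to 87186751, minus strand). The ratio was 0.808 (0.615 to 1.06). Ier2 stood between Junb above and Dusp1 below, overlapping with neither.

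Dusp1, whose phosphatase switches off MAP kinases and so ends the signal that induces these genes, lay at 6.18 RPKM in uterus 1 (46 reads) and 5.44 RPKM in uterus 2 (45 reads), a mean of 5.81 ± 0.519 RPKM (SD, n = 2). Its transcript (NM_013642) lies on the minus strand of chromosome 17 from 26642536 to 26645417. The ratio was 0.881 (0.571 to 1.36). Dusp1 and Fos overlapped in level, since the 2 uteri of Fos lay on either side of both Dusp1 values.

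None of the 10 genes was called different between the 2 animals. Of the 9 genes with at least 6 reads in sum, 0 passed a two-sided exact binomial test of the recovered reads with Benjamini-Hochberg adjustment over 15132 genes, where 4.74% of all genes tested passed. That test compares these 2 libraries, not conditions. It sets their difference against counting error alone, not against the spread between animals, so a call for any gene or list here says no more than that, and genes with many reads are called at smaller ratios. One of the 9, Fos, had an unadjusted p under 0.05, against 15.6% of all genes tested: p = 0.00296, adjusted p = 0.0585 in the same exact test, and 0.0527 to 0.0667 over 5 alternative settings. The next lowest adjusted p was that of Jund, 0.324. Of the 8 genes whose mean reached 1 RPKM, 0 were at least 2-fold apart, where 2.60% of all such genes were (1.18% with uterus 2 the higher). On the log2 scale with a pseudocount of 0.1 RPKM, which understates the change of low genes, the 8 ratios ran from -0.31 (Ier2) to 0.90 (Fos), with 4 above and 4 below 0 and a median of -0.01 against 0.00067 for all such genes.

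**Figure D4:**
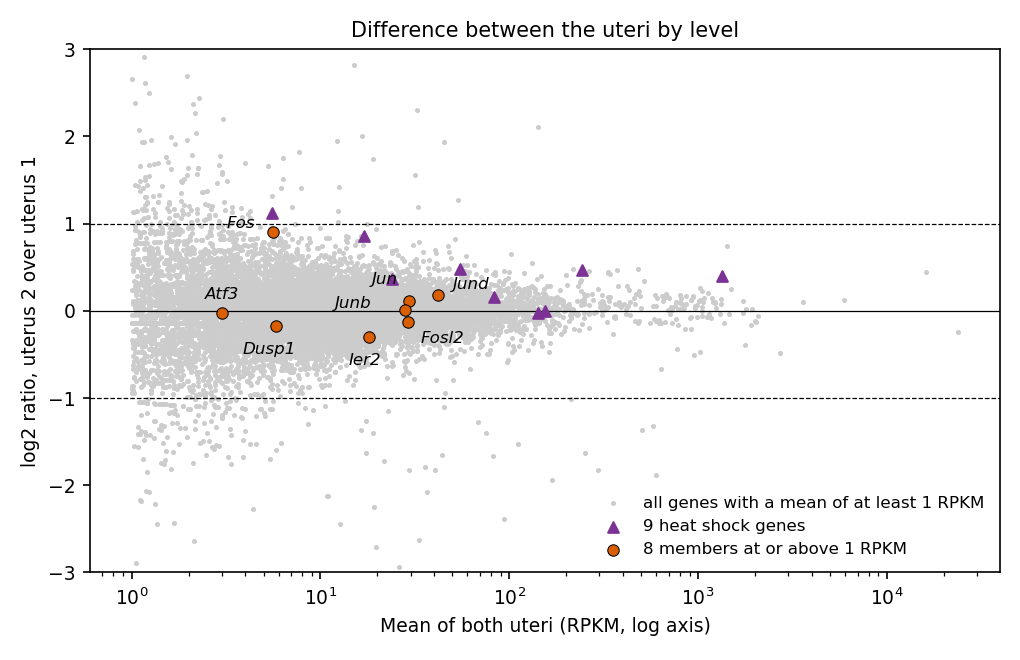
log2 ratio of uterus 2 over uterus 1 (vertical axis, dashed lines at 2-fold) against the mean RPKM (log axis) for genes whose mean reached 1 RPKM, with 27 genes outside the axis range of 3. The labelled genes other than Fos lie between -0.31 and 0.18, while Fos (0.90) lies just under the 2-fold line beside a triangle that is the heat shock gene Hspa1a (1.13).

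A list of 36 other immediate early genes was measured in the same way. All were in the table, 31 were detected in both uteri, and the list's median was 10.5 RPKM in uterus 1 and 12.0 in uterus 2. The highest were Zfp36l1, which encodes a protein that promotes decay of AU-rich mRNAs, at 94.5 and 74.7 RPKM, Rhob, a small GTPase gene, at 83.3 and 73.5 RPKM, and Ctgf, a matricellular growth factor gene, at 52.8 and 55.1 RPKM. Egr3 and Egr4 were listed at 0 in both. Egr1, the serum-induced zinc finger gene often measured beside Fos, had 5.60 RPKM (66 reads) in uterus 1 and 4.36 RPKM (57 reads) in uterus 2. Its higher value was thus in uterus 1 and that of Fos in uterus 2, with an adjusted p of 0.586 for Egr1 in the exact binomial test. Egr1 falls outside the naming rule and was chosen with its values known.

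Of the 33 such genes tested, 0 were called higher and 1 lower in uterus 2 (2.20% and 2.54% of all genes tested). The one was Zfp36l1, with an adjusted p of 1.32e-05 in the exact binomial test. Nr4a1, an orphan nuclear receptor gene, had the largest ratio of the list at -0.90 on the log2 scale, with 1.69 and 0.854 RPKM on 16 and 9 reads, and did not pass (adjusted p = 0.474 in the exact test). The median log2 ratio of the 32 genes that reached that mean was 0.0013, with 17 above and 15 below 0.

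Among 24 other bZIP genes, which encode possible partners or competitors of AP-1 proteins, 22 were detected in both uteri, with medians of 9.90 and 12.3 RPKM. Atf4, the factor of the integrated stress response, was highest at 55.3 and 57.2 RPKM, followed by Maf at 43.6 and 43.9 RPKM and by Nfe2l2, the regulator of antioxidant genes, at 41.8 and 44.6 RPKM. Mafa and Nrl were listed at 0. Of 22 tested, 1 was called higher in uterus 2 (2.20% of all genes tested) and 0 lower (2.54%). The one was Creb1, which encodes the CREB factor that binds the cAMP response element, at 13.8 and 18.2 RPKM (adjusted p = 0.000566, exact binomial test). That call was lost with the smallest possible reads (adjusted p = 0.163 in the exact test). Batf3 had the largest ratio, 0.70 on the log2 scale, on 6 and 11 reads, and did not pass.

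The kinases that signal to AP-1 were mostly detected. Of 17 MAP kinase and MAP kinase kinase genes, 16 were detected in both uteri, with medians of 14.8 and 13.4 RPKM, and 0 of 16 tested were called, against 4.74% of all genes tested. An unadjusted p under 0.05 was found for 1 of the 16, against 15.6% of all. Mapk3, which encodes the kinase ERK1, lay at 50.6 and 47.1 RPKM. Map2k2, an ERK-activating kinase gene, lay at 33.3 and 27.2 RPKM, and the p38 gene Mapk13 had the largest log2 ratio, -0.41. Mapk10, the JNK gene of the nervous system, had a mean of 0.0869 RPKM.

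All 7 serum response factor genes were detected, with medians of 14.2 and 14.1 RPKM. Srf itself lay at 30.5 and 29.0 RPKM, and its partners Elk4 and Elk3 at 25.7 and 20.8 RPKM and at 16.1 and 14.3 RPKM. Mkl1, a cofactor of Srf controlled by actin, had the largest log2 ratio, -0.38. Of the 7, 1 had a log2 ratio above 0 and 6 below, with a median of -0.07. By the exact binomial test 0 of the 7 were called (4.74% of all genes tested), and 2, Elk4 and Mkl1, both with the lower value in uterus 2, had an unadjusted p under 0.05 (15.6% of all). Of 9 other MAP kinase phosphatase genes 5 were detected, led by Dusp6 at 13.2 and 16.0 RPKM, Dusp16 at 11.0 and 10.5 RPKM and Dusp7 at 7.96 and 5.85 RPKM. Dusp10 had the largest log2 ratio, -0.72, on 20 and 13 reads. In the same test 0 of 8 were called and 1 had an unadjusted p under 0.05, beside the same 4.74% and 15.6% of all genes. Dusp1 was thus below Dusp6, Dusp16 and, in both uteri, Dusp7.

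The genes for turnover of the JUN protein were all detected, with medians of 22.5 and 26.3 RPKM. Cops5, a signalosome subunit known as a JUN-binding protein, lay at 41.0 and 48.9 RPKM, and the ubiquitin ligase genes Itch and Rfwd2 at 24.97 and 27.4 RPKM and at 22.5 and 26.3 RPKM. All 5 had ratios above 0 with a median of 0.22 on the log2 scale, yet 0 of 5 were called by the exact binomial test, against 4.74% of all genes tested. Of the 5, 2 had an unadjusted p under 0.05, against 15.6% of all.

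In a list of 14 genes known to be regulated by AP-1, 11 were detected in both uteri. The list's median level was 9.19 RPKM in uterus 1 and 4.73 RPKM in uterus 2, whereas the median log2 ratio of the 11 genes whose mean reached 1 RPKM was -0.0047, with 5 above and 6 below 0. The cyclin gene Ccnd1 was highest at 41.2 and 35.7 RPKM, followed by the angiogenic factor gene Vegfa at 24.5 and 25.4 RPKM and the metalloproteinase inhibitor gene Timp1 at 19.0 and 18.7 RPKM. Mmp13 was listed at 0. Plau, which encodes the urokinase plasminogen activator, lay at 10.4 RPKM in uterus 1 (93 reads) and 4.91 RPKM in uterus 2 (49 reads). It was the 1 gene of 11 tested that was called, lower in uterus 2 (2.54% of all genes tested). Its log2 ratio was -1.06, with an adjusted p of 0.000902 in the exact binomial test. In the same test 3 of the 11 had an unadjusted p under 0.05 (15.6% of all). These were Plau, its receptor gene Plaur (8.03 and 4.54 RPKM) and Ccnd1, all with the lower value in uterus 2.

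Heat shock genes encode chaperones and respond to protein damage, and most of them were higher in uterus 2, the uterus with the higher Fos value. Of 9 genes, 5 were called higher in uterus 2 and 0 lower, against 2.20% and 2.54% of all genes tested. The median log2 ratio of the 9 was 0.39. The list was chosen with earlier results of these data known. Its median level was 78.9 RPKM in uterus 1 and 87.9 in uterus 2, against 3.28 and 3.23 for all genes. Genes with many reads are called at smaller ratios, so the shares of all genes are not a like comparison. With 1 ratio per gene, whether heat shock and Fos levels go together was not tested. Hspa8, the constitutive HSP70 gene, lay at 1149 and 1511 RPKM, and Hsp90aa1 at 203 and 281 RPKM. The inducible HSP70 gene Hspa1a had the largest ratio, 1.13 on the log2 scale, with 3.45 RPKM in uterus 1 and 7.64 RPKM in uterus 2 (adjusted p = 0.00139, exact binomial test). Its near-identical copy Hspa1b, where reads can be split between the pair, lay at 12.0 and 21.8 RPKM, and Hsph1 at 45.9 and 64.0 RPKM. Hspd1, of the mitochondrial chaperonin, lay at 154 RPKM in both. With the smallest possible reads 4 of the 5 calls held, and Hsp90aa1 had an adjusted p of 0.0549 in the exact test. With a penalty of 1 it had 1.22e-09 in that test. Its result thus depended on the factor chosen for its reads, which rested on a recovered length of 380 bases. Among the 20 markers of stroma, smooth muscle, epithelium and endothelium, Dcn, Myh11 and Krt18 were called higher in uterus 2. Col1a1, Acta2 and Kdr were called lower. These were 2 of 6 stroma, 2 of 5 smooth muscle, 1 of 5 epithelium and 1 of 4 endothelium markers. The share of all genes tested was 4.74%. Acta2 (6436 and 6479 reads) and Myh11 (7977 and 9883 reads) were called at ratios of 0.907 and 1.12. For Kdr (479 and 385 reads) and Krt18 (378 and 562 reads) the ratios were 0.724 and 1.34. Of the ovary and oviduct markers, 0 of 3 tested were called (4.74% of all genes tested). Their summed level was 9.94 RPKM in uterus 1 and 14.01 RPKM in uterus 2. Ovgp1 had an unadjusted p of 0.00485 (adjusted p = 0.0823, exact binomial test). Of the leukocyte markers, 0 of 4 were called (4.74% of all genes tested). In the same test 2 of the 4 had an unadjusted p under 0.05 (15.6% of all). Their list's summed level was 53.6 RPKM in uterus 1 and 59.7 RPKM in uterus 2. Within them Ptprc lay at 17.7 and 21.6 RPKM (adjusted p = 0.0644, exact binomial test) and Csf1r at 19.4 and 22.9 RPKM (adjusted p = 0.257, exact binomial test), while Cd68 and Cd3e had their higher value in uterus 1. The part of cell makeup, or of what set the heat shock levels, in the Fos values was not tested.

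**Figure D5:**
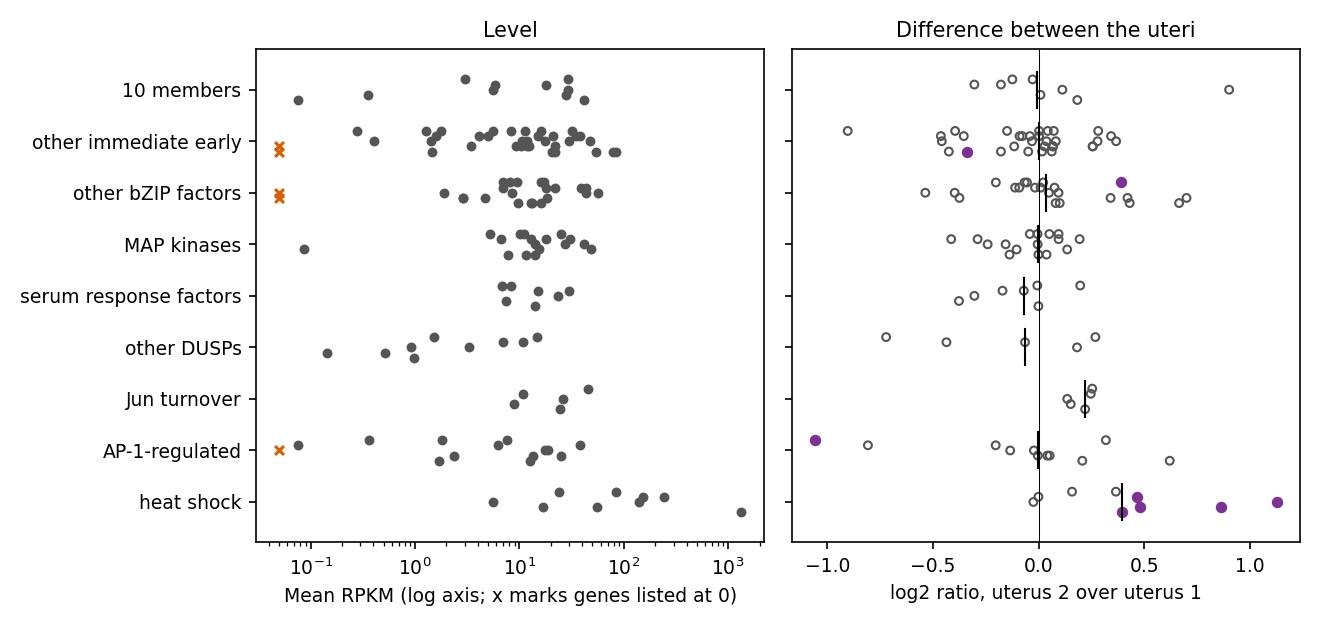
Mean RPKM (left, log axis, genes listed at 0 as crosses at 0.05) and log2 ratio of uterus 2 over uterus 1 (right, genes whose mean reached 1 RPKM) for the 10 genes and 8 further lists, 1 point per gene, with called genes filled and list medians as black lines. Filled points gather in the heat shock list (5 of 9), and none is among the 10 genes. All lists were chosen with earlier results of these data known.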

How the data were processed

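Poly-A RNA from whole uterus of 2 mice was sequenced on a HiSeq2500, per the series' design text, from TruSeq libraries, per the labels' protocols. The authors deposited RPKM values. The submitters' processing notes name TopHat, edgeR and build mm9 (NCBIM37) without roles. Neither the annotation release nor strand use is given in the sources used here.

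Reads were recovered as RPKM times length times a scaling total (3834174 and 4256101) found from single-exon genes. All 127 and 131 held-out single-exon values were whole within a relative tolerance of 1e-06. Elsewhere reads were a fraction in lowest terms times a factor chosen by annotated length, 1 for all 10 genes. Of the recovered lengths, 78.7% lay within 5% of an annotated length, and 1205 genes had no annotated length. The reads entered a two-sided exact binomial test (scipy 1.17.1, at least 6 reads in sum, Benjamini-Hochberg adjusted p under 0.05). Starts are printed counted from 1. With 1 group there is no contrast between conditions.

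The 10 genes and all lists were chosen with earlier results of these data known. Named from each further list were the 3 highest genes and the one with the largest ratio among means of at least 1 RPKM, and from cell type lists the highest gene. Other list genes, such as further called ones or those listed at 0, were named after their values were seen. Some list genes that this rule would name are not reported here.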

Additional observations from a re-analysis of the deposited data

How the results depend on the processing

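Of 197 alternative values computed, 165 stayed within 1 SD, the counting interval or 1.5 times of the value reported. That count is no measure of stability. Single-uterus levels lie within 1 SD by construction, and the interval of the Fosl1 ratio has no lower limit. The median log2 ratio of other phosphatases was counted as unchanged, though it went from -0.065 to -0.437 without a filter. On the TPM scale, another unit, levels were 99.5 (Jund), 69.7 (Jun), 68.7 (Fosl2), 66.6 (Junb), 42.9 (Ier2), 13.8 (Dusp1), 13.2 (Fos), 7.11 (Atf3) and 0.842 (Fosb). List medians became 26.7 (other immediate early), 26.3 (other bZIP), 33.4 (MAP kinases), 33.5 (serum response), 3.61 (other phosphatases), 57.7 (JUN turnover), 16.5 (AP-1-regulated) and 197 (heat shock). Leaving out members listed at 0 gave 13.02 for other bZIP, 2.40 for other phosphatases and 12.7 RPKM for AP-1-regulated genes. The Jun share in reads was 59.2% on average. Without a filter 1 of 10 genes was at least 2-fold apart, Fosl1, on 1 read. Ranks among NM_ genes were 2442 (Junb), 9269 (Dusp1), 11120 (Atf3), 14111 (Fosb) and 15496 (Fosl1), where fewer genes are ranked. Single uteri gave ranks of 2495 to 2500 for Junb, 11555 to 11563 for Atf3 and 16032 to 16812 for Fosl1.

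Under 5 alternatives of the exact binomial test, 0 of the genes tested were called. These were 9 of the 10, or 8 with at least 20 reads in sum, and Fosl1 was not tested. The adjusted p of Fos ran from 0.0527 (at least 20 reads in sum) to 0.0667 (smallest possible reads). In all, 581 to 777 genes were called, with shares of the genes tested from 3.90% to 5.53%. All 5 alternatives for Fos, those for calls in the further lists, and the penalty of 1 for every result were chosen after seeing the data. With 31 and 65 reads for Fos and fewer for Atf3, Fosb and Fosl1, depth limits what these libraries can show. A mean of 2 values moves by less than 1 SD to either by construction, which says nothing about stability. No paired analysis was possible because both libraries belong to 1 group.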

Other observations

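Fos and Atf3 have other bZIP genes near them on NCBIM37, which was noticed in the coordinates and not compared with other genes. On chromosome 12, Jdp2 (86940055 to 86980828) and Batf (87027670 to 87050037), both on the plus strand as Fos is, lie 122 kb and 209 kb beyond Fos. Jdp2, which encodes a repressor that pairs with Jun proteins, lay at 7.07 RPKM in uterus 1 and 6.75 in uterus 2, and Batf, a partner of Jun proteins in lymphocytes, at 7.21 and 6.76 RPKM. The 3 genes thus had similar mean levels of 5.58 to 6.99 RPKM, and the SD over the uteri was 2.43 RPKM for Fos, 0.231 for Jdp2 and 0.322 for Batf. On chromosome 1, Batf3 (192922293 to 192932822) lies 61.4 kb from Atf3, with means of 2.91 and 3.004 RPKM. On chromosome 8, Junb and Ier2, both of the 10 genes, lie 314 kb apart on the minus strand, with 28.1 and 18.1 RPKM.

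The promoter windows of 7 of the 8 genes in the promoter table were richer in G and C than the median of all promoters (52.7%), from 58.7% in Fos to 68.3% in Fosb. Jund was the exception at 46.7%, with 3 CpG pairs against 15 to 32 in the other windows. That window is anchored at the start annotated on GRCm38.p6, and whether that is the start used for the deposited values was not tested.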
